A study of Rattus norvegicus with 15 samples.

Results

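Liver sinusoidal endothelial markers and receptors were followed in rat hepatocytes sorted by DNA content. The set holds 10 genes, Kdr, Fcgr2b, Stab2, Vwf, Lyve1, Oit3, Pecam1, Eng, Vipr1 and Ramp1, and its members are the array probes that carry one of these gene names. They were 13 of the 45598 probes on the array, and 9 of the 10 genes were among the 17416 features tested, a feature being the brightest probe of a gene or a probe with no gene symbol. The genes were selected on these arrays, with their measured 8c against 2c and 4c against 2c differences already known, so both differences are given as a description. They were fitted with all features, and only the count and the names of the genes past the threshold are given for them, beside the share over all features, with nothing read from it. The 8c against 4c difference and the dependence on age were tested.

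Hepatocytes came from adult female Wistar rats, were stained with a Hoechst DNA dye and were sorted by flow cytometry. The 3 sorted groups are 2c (diploid DNA content), 4c and 8c. Each fraction was measured on 5 one-colour arrays, 1 from each of 5 experiments, in rats of 12, 14, 6, 5 and 6 weeks for experiments 1 to 5. No treatment or transgene was named, and the sort was on DNA content, with no marker against endothelial cells named. Whether an experiment pooled several rats was not stated.

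Sinusoidal endothelial cells line the capillaries of the liver. They are perforated by open pores, rest on almost no basement membrane and clear waste from the blood through scavenger and Fc receptors. Most of them are diploid, whereas rat hepatocytes become polyploid with age. Von Willebrand factor is typical of the endothelium of larger vessels and is scarce in the sinusoids.

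The hepatocyte label was checked against 24 marker genes. All 24 were well above background on every array, with a summed linear level of 1543 to 2103 in 2c, 1567 to 1936 in 4c and 1479 to 1935 in 8c fractions. Well above background is the flag that the extraction software sets for a spot. Between 39.6% and 47.4% of the probes of an array had it. Pancreatic acinar transcripts were present on 6 arrays, with 20 of 20 acinar genes well above background on the 2c and 8c arrays of experiment 1, on all arrays of experiment 2 and on the 8c array of experiment 3. The arrays lay on 2 slides, and the 8c array of experiment 3 was on slide 2 while the 2c and 4c arrays of that experiment were on slide 1.

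Some of the probes are shown because the reading of a gene turned on them. Positions are counted from the 5′ end of the transcript that the probe was designed on, as the files give them, and genome positions refer to rn4. The first Vwf probe starts at base 1278 (chr4:161759938-161759997, plus strand), and the second starts at base 8595 (chr4:161854554-161854613, plus strand). The Eng probe starts at base 1955, and the second Vipr1 probe starts at base 1147, both with no genome position in the files. The second Stab2 probe starts at base 7237 (chr7:23475318-23475377, minus strand). No annotation of rn4 was used, so the exon under a probe is not stated. All letters are in lower case since no part is singled out.
Vwf, base 1278: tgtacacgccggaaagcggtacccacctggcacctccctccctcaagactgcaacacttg
Vwf, base 8595: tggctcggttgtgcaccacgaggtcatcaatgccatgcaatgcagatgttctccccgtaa
Eng, base 1955: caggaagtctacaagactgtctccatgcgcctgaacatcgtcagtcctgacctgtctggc
Vipr1, base 1147: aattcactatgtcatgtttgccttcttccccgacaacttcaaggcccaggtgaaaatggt
Stab2, base 7237: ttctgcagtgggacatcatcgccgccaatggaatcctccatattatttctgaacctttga

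Of the 10 genes, 7 had dimmer probes in the 8c and 4c fractions than in the 2c fractions, Oit3 was near background, Eng differed little, and the bright Vwf probe was flat. Levels are log2 processed signals relative to the 75th percentile of the array, so 0 is that percentile, and a difference of -1 is a signal lower by a fold of 2. In 8c against 2c fractions, the mean log2 difference was -4.51 for Ramp1, -4.13 for Kdr, -4.12 for Vipr1, -3.14 for Fcgr2b, -2.94 for Lyve1, -2.32 for Stab2 and -2.24 for Pecam1. It was -0.65 for Eng and -0.02 for Vwf. In bulk RNA of a sorted fraction, fewer cells of a type and less RNA per cell cannot be told apart.

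Of the 9 genes tested, 5 were lower in 8c than in 2c at an adjusted p under 0.05 with limma (Benjamini-Hochberg over all features), namely Kdr, Fcgr2b, Lyve1, Vipr1 and Ramp1. Over all features 1.54% were lower at that threshold. In 4c against 2c, 4 of the 9 were lower, namely Fcgr2b, Lyve1, Vipr1 and Ramp1, against 0.907% of all features. That count was 1 without experiment 2 or without experiment 3, and 0 without experiment 5. With a single array left out it was 0 without the 2c or the 4c array of experiment 5, and 1 without the 4c array of experiment 1, 2, 3 or 4, the 2c array of experiment 2 or 3, or the 8c array of experiment 5. Shares over all features are not given for these settings, so the drops say nothing particular to the genes. These contrasts were known when the genes were selected, so neither count nor any gene's place in it is evidence. A gene could also pass the filter on dim probes through its 2c arrays alone. The median difference over the 9 genes was -2.94 for 8c against 2c and -2.81 for 4c against 2c, beside -0.02 and -0.03 over all features. All levels and folds below rest on the background subtraction of the extraction software. With normexp background correction in its place, whose offset of 50 draws dim values together, the 8c against 2c median was -0.72. The difference was then -1.68 for Kdr, -1.39 for Ramp1, -1.37 for Vipr1, -0.98 for Fcgr2b, -0.72 for Lyve1, -0.57 for Stab2 and -0.50 for Pecam1, so the folds given as lower bounds hold for the software's subtraction alone. With the dim arrays of the lower fraction raised to the lowest level that the array measured well above background, the medians were -2.03 and -2.27.

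**Figure D1:**
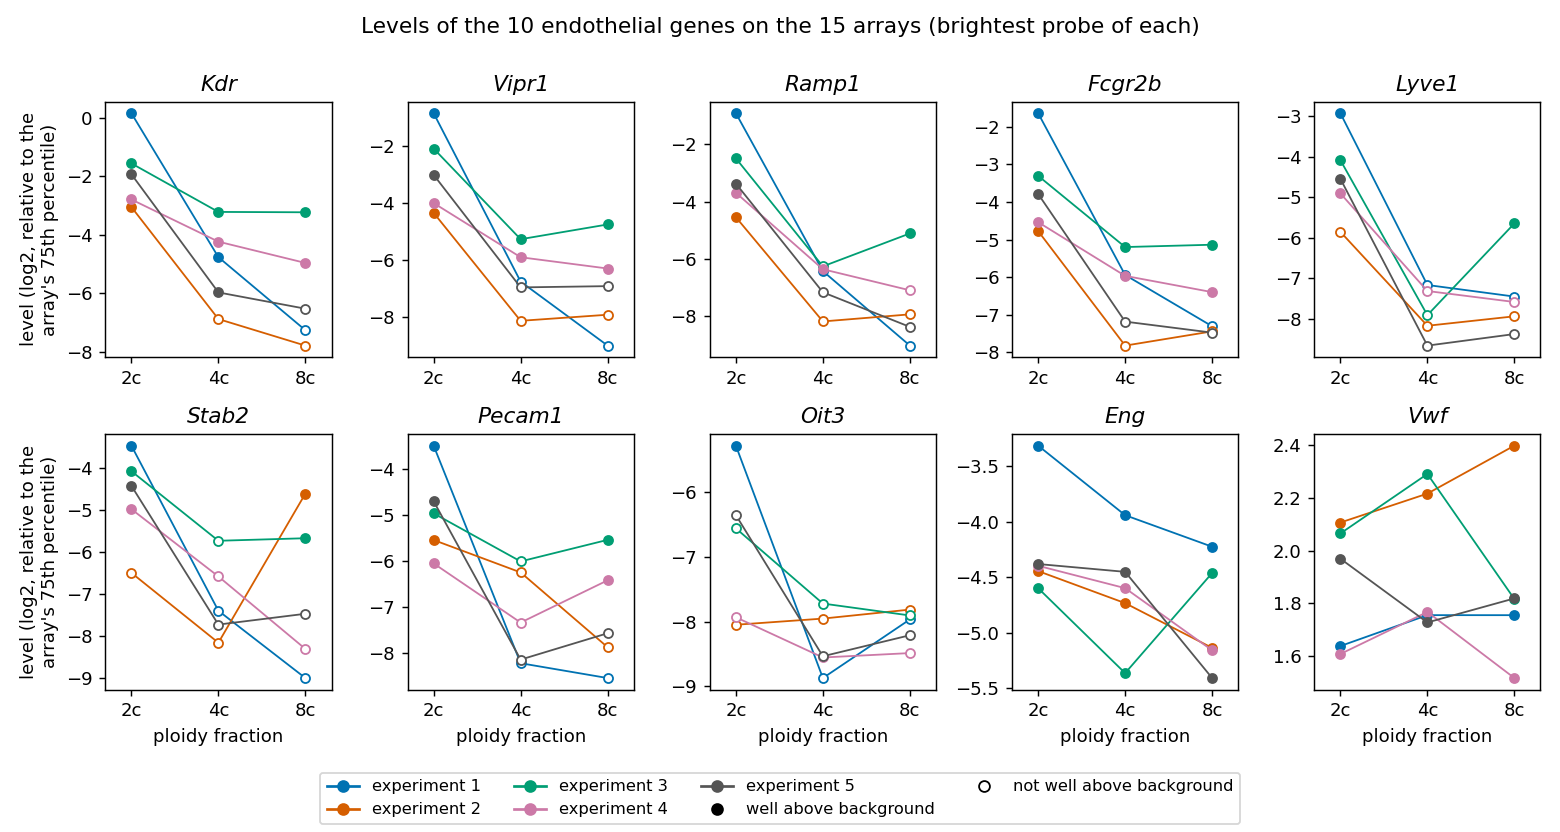
Level of each of the 10 genes (brightest probe, log2 relative to the 75th percentile of the array) in the 2c, 4c and 8c fractions, with 1 line per experiment and open circles for arrays not well above background. Each panel has its own vertical range. Kdr, Vipr1, Ramp1 and Fcgr2b are higher on all 5 2c arrays than on any 4c or 8c array, while Vwf stays between 1.52 and 2.40.

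Kdr and Eng are receptors for growth factors, and they differed in how far their levels ranged. Kdr, the main VEGF receptor of endothelial cells, had levels of 0.17, -3.05, -1.55, -2.79 and -1.92 in the 2c fractions of experiments 1 to 5. It had -4.77, -6.89, -3.22, -4.24 and -5.98 in the 4c fractions and -7.27, -7.80, -3.23, -4.97 and -6.53 in the 8c fractions. The 2c arrays did not overlap with either other fraction, and the brightest array was 2c of experiment 1. Kdr was well above background on 2 of 5 8c arrays, 4 of 5 4c arrays and 5 of 5 2c arrays. The 8c mean was -5.96 ± 1.86 and the 2c mean was -1.83 ± 1.27 (SD, n = 5 each), a fold of at least 13.8 lower in 8c with its dim arrays at their floor and the software's background subtraction, while normexp gave the -1.68 stated above. For 4c against 2c the fold was at least 8.51, with a 4c mean of -5.02 ± 1.44 (SD, n = 5). Within experiments the 8c minus 2c difference of Kdr ran from -7.44 in experiment 1 to -1.68 in experiment 3.

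Eng encodes endoglin, a co-receptor for BMP9 and TGF-β ligands on endothelial cells. Its probe was well above background on all 15 arrays, with levels of -3.32, -4.44, -4.60, -4.40 and -4.38 in the 2c fractions of experiments 1 to 5. The 4c fractions had -3.94, -4.73, -5.36, -4.60 and -4.45, and the 8c fractions had -4.23, -5.14, -4.46, -5.16 and -5.41. The 3 groups overlapped, and 8c was below 2c in 4 of 5 experiments. The mean difference was -0.65 ± 0.46 for 8c against 2c and -0.39 ± 0.29 for 4c against 2c (SD over 5 experiments). Without experiment 3 the 8c against 2c difference was -0.85.

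Vipr1 (brighter probe) and Ramp1, which serve neuropeptide receptors, were well above background on all 5 2c arrays and mostly not elsewhere. Vipr1 encodes the VPAC1 receptor for vasoactive intestinal peptide, and its brighter probe had levels of -0.83, -4.33, -2.07, -3.99 and -2.99 in the 2c fractions. The 4c fractions had -6.74, -8.12, -5.26, -5.89 and -6.95, and the 8c fractions had -8.99, -7.91, -4.74, -6.28 and -6.90. All 2c arrays were above every 4c and 8c array, and 2 of 5 arrays were well above background in 8c and 2 of 5 in 4c, namely those of experiments 3 and 4. The fold was at least 10.1 lower in 8c than in 2c, and at least 10.6 lower in 4c than in 2c.

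Ramp1 encodes an accessory protein that joins the calcitonin receptor-like receptor to form the receptor for CGRP. Its levels were -0.91, -4.54, -2.49, -3.69 and -3.37 in the 2c fractions, -6.43, -8.19, -6.26, -6.36 and -7.17 in the 4c fractions, and -9.03, -7.94, -5.11, -7.10 and -8.38 in the 8c fractions. The 2c arrays again lay above all others, and the 8c array of experiment 3 was the highest outside 2c. The fold was at least 10.4 lower in 8c than in 2c, with 1 of 5 8c arrays well above background, and at least 10.8 lower in 4c than in 2c, with 2 of 5.

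The scavenger and Fc receptors Fcgr2b, Lyve1 and Stab2 had lower mean levels in 8c and in 4c than in 2c fractions. Fcgr2b, the inhibitory Fc receptor through which sinusoidal endothelium takes up immune complexes, had levels of -1.64, -4.77, -3.30, -4.54 and -3.79 in the 2c fractions. It had -5.94, -7.82, -5.20, -5.96 and -7.18 in the 4c fractions and -7.30, -7.44, -5.14, -6.40 and -7.47 in the 8c fractions. No 8c or 4c array reached the lowest 2c array. The fold was at least 6.41 lower in 8c, with 2 of 5 arrays well above background, and at least 5.62 lower in 4c, with 3 of 5. Fcgr2b was printed 10 times on each array. The coefficient of variation over its spots was 5.35% to 20.9% on the 10 arrays well above background and 17.7% to 63.7% on the 5 others, so the dim values of this gene are less precise.

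Lyve1 encodes a hyaluronan receptor of sinusoidal and lymphatic endothelium. It had levels of -2.92, -5.85, -4.08, -4.90 and -4.54 in the 2c fractions, and none of its 5 4c arrays, with -8.67 to -7.17, was well above background. The 8c arrays had -7.45, -7.94, -5.65, -7.59 and -8.38, and the array of experiment 3 was the 1 array of the 5 well above background. That 8c array was above the 2c array of experiment 2, itself not well above background, so 8c and 2c overlapped while 4c and 2c did not. With the 2c array of experiment 2 left as measured, the fold was at least 4.81 lower in 4c than in 2c and at least 4.07 lower in 8c.

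Stab2 encodes stabilin-2, an endocytic hyaluronan receptor that defines this endothelium. Its brighter probe, from base 4311 of its transcript (rn4 chr7:23470391-23470450, minus strand), had -3.47, -6.50, -4.08, -4.99 and -4.43 in the 2c fractions and -7.41, -8.17, -5.74, -6.59 and -7.73 in the 4c fractions. In the 8c fractions it had -9.01, -4.61, -5.68, -8.32 and -7.48. The 8c array of experiment 2 was thus 1.89 above the 2c array of that experiment and 3.55 above its 4c array, while the 8c minus 2c difference was -5.54 to -1.60 in the other 4 experiments. That array also carried the acinar transcripts, and their part in the value was not tested. Without experiment 2 the 8c against 2c difference was -3.38, against -2.32 with all arrays.

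The remaining members are a junction protein and 2 secreted proteins. Pecam1, an adhesion molecule of endothelial junctions that platelets and leukocytes also carry, had levels of -6.05 to -3.50 in 2c fractions, -8.22 to -6.01 in 4c fractions and -8.54 to -5.54 in 8c fractions. The 8c and 4c fractions were each below 2c in 5 of 5 experiments, although the groups overlapped. The 4c arrays were never well above background, the fold was at least 3.37 lower in 4c and at least 2.67 lower in 8c. Oit3, a secreted protein of liver endothelium, was well above background on 1 array, the 2c array of experiment 1 at -5.28, and was not tested.

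The 3 genes with a pair of probes gave different readings by probe. The Vwf probe from base 1278 was bright on all 15 arrays, with 1.64, 2.11, 2.06, 1.61 and 1.97 in 2c, 1.76, 2.22, 2.29, 1.77 and 1.73 in 4c, and 1.76, 2.40, 1.82, 1.52 and 1.82 in 8c fractions. Its mean difference was -0.02 ± 0.22 for 8c against 2c and 0.07 ± 0.18 for 4c against 2c (SD over 5 experiments), and the sign of both turned under other settings. The Vwf probe from base 8595 was well above background on 0 of 15 arrays. The 2 probes thus disagree on whether Vwf was measurable, and no annotation used here settles which of them reads the gene.

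For Vipr1, the probe from base 1147 was well above background on 3 of 5 2c arrays, 1 of 5 4c arrays and 0 of 5 8c arrays. No 8c array was well above background, and with these arrays at their floor its 8c minus 2c difference was -0.59 on the log2 scale. The 2c arrays not well above background were left as measured, so -0.59 is not a strict bound. For Stab2, the probe from base 7237 was well above background on 1 array, 2c of experiment 1. It therefore could not show whether the 8c level of experiment 2 was high.

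**Figure D2:**
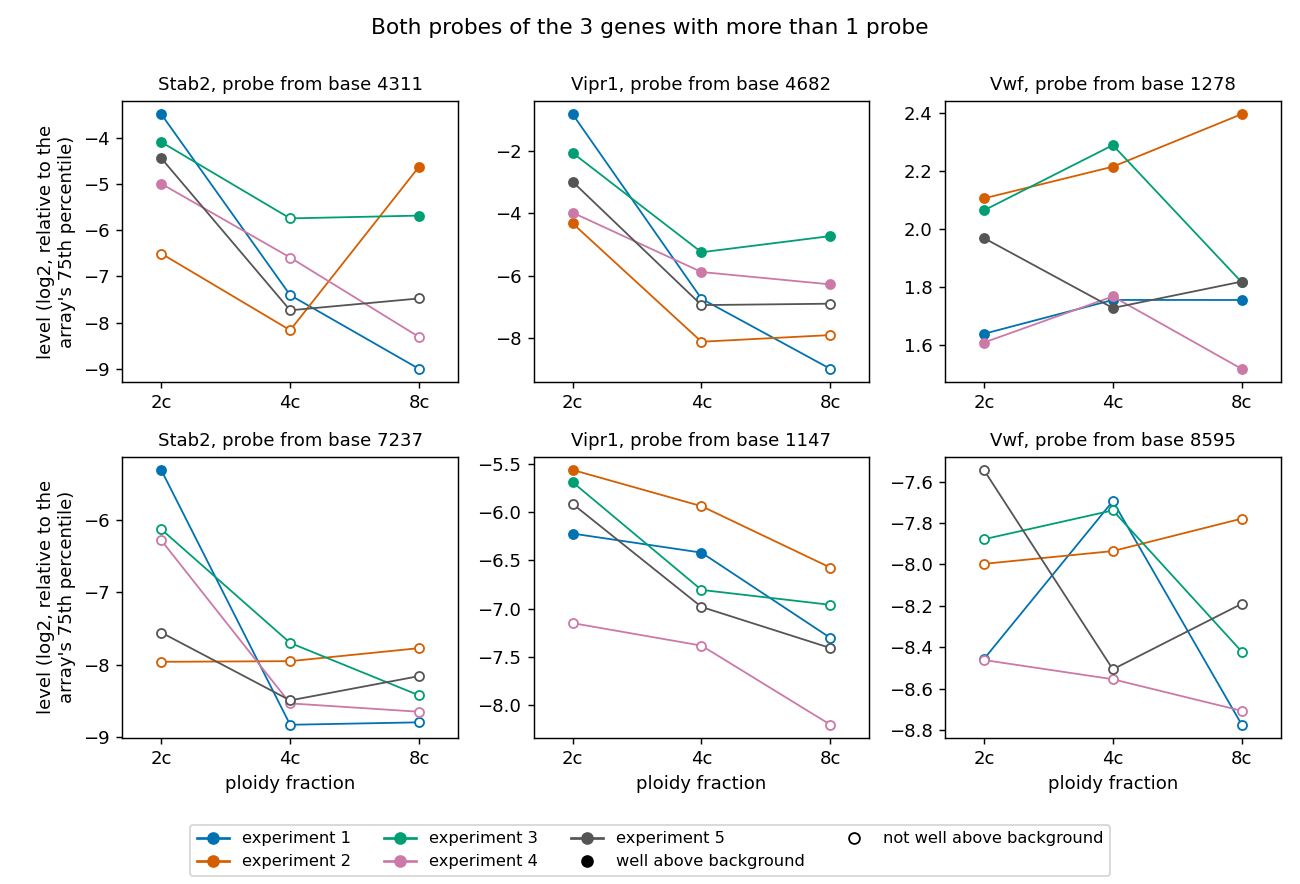
Levels (log2 relative to the 75th percentile of the array) of both probes of Stab2, Vipr1 and Vwf by fraction, with the brighter probe above and 1 line per experiment. Open circles are arrays not well above background, and each panel has its own vertical range. The Vwf probe from base 8595 has 15 open circles, and the probe from base 1278 has none.

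The 8c against 4c comparison asks whether the members differed between the polyploid fractions. None of the 9 tested genes passed, the adjusted p with limma ran from 0.736 to 0.999, and none had an unadjusted p under 0.05. Over all features 0.62% passed in either direction. The mean log2 difference was -0.94 for Kdr (SE 0.67), -0.63 for Ramp1 (SE 0.65), -0.37 for Vipr1 (SE 0.68) and -0.33 for Fcgr2b (SE 0.48). It was 0.45 for Lyve1 (SE 0.43) and 0.11 for Stab2 (SE 0.84). Kdr was lower in 8c than in 4c in 5 of 5 experiments, with a difference of -0.01 in experiment 3 and -2.50 in experiment 1. Of the 5 arrays of each fraction, Kdr was well above background on 2 in 8c and 4 in 4c, and Stab2, Lyve1 and Pecam1 were on 0 in 4c. The median over the 9 genes was -0.26, and it was 0.11 without the 8c array of experiment 1.

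The order of the group means was 2c, then 4c, then 8c for Kdr, Ramp1, Vipr1, Fcgr2b and Eng. It was 2c, then 8c, then 4c for Lyve1, Stab2, Pecam1 and Oit3. For the bright Vwf probe it was 4c (1.95), then 2c (1.88), then 8c (1.86). The 8c minus 4c difference was also taken with the dim arrays of the lower fraction at their floor. Dim arrays of the other fraction were left as measured. The sign of the difference then changed for Ramp1 (0.50), Vipr1 (0.41), Fcgr2b (0.13), Lyve1 (-0.68), Stab2 (-0.43), Pecam1 (-0.48) and Oit3 (-1.34), and stayed for Kdr. All of these genes had dim arrays in both fractions. Raising only the lower fraction pushes such a difference towards a change of sign. The changes of sign therefore do not settle the order of 4c and 8c. Eng and the bright Vwf probe had no dim arrays in 4c or 8c, so their sign could not change. The neighbours 4c and 8c did not differ past the threshold for any tested gene with all 15 arrays. For Kdr the mean 8c minus 4c difference of -0.94 was about as large as its SD over experiments of 0.93. For Eng it was -0.55 without experiment 3 (SE 0.11, adjusted p = 0.181 with limma).

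**Figure D3:**
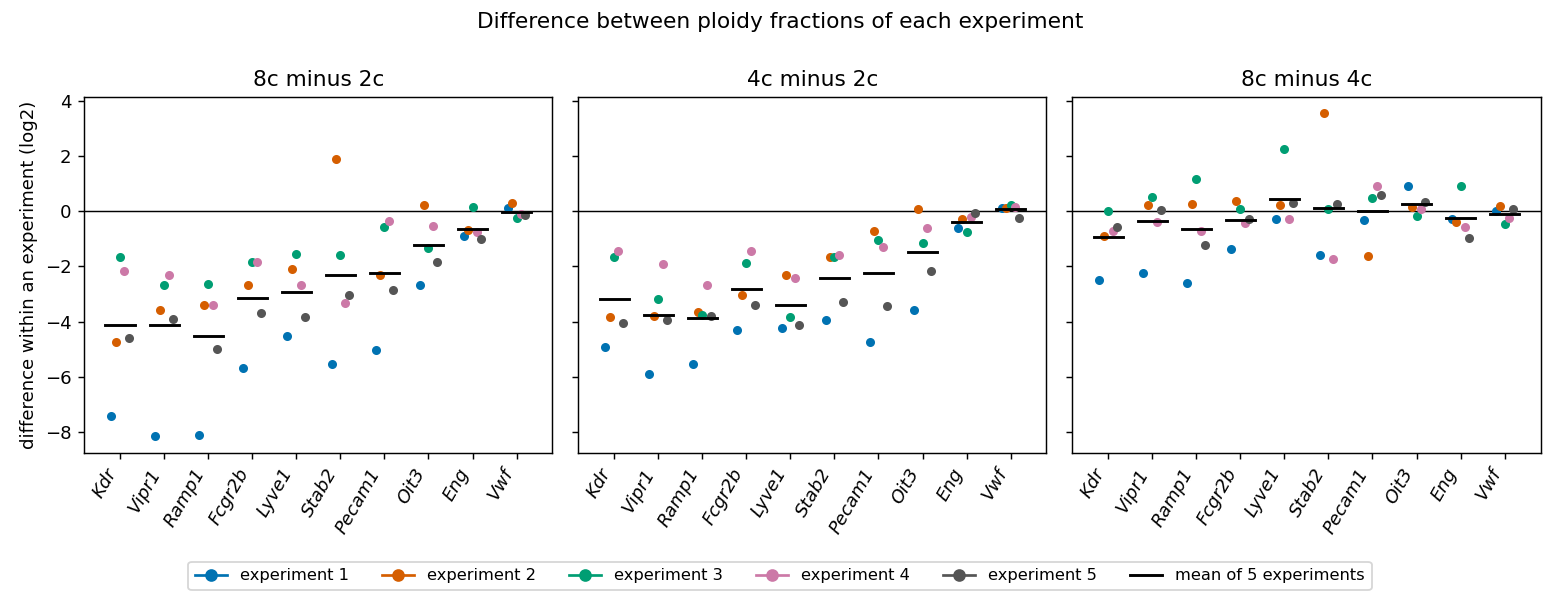
Difference in level (log2) between ploidy fractions within each experiment for the 10 genes, with 1 point per experiment and a bar at the mean of the 5 experiments. For 8c minus 2c and 4c minus 2c, Kdr, Vipr1, Ramp1, Fcgr2b, Lyve1 and Pecam1 have all 5 points below 0. For 8c minus 4c, points lie on both sides of 0 for 9 of the genes, and all 5 lie below 0 for Kdr.

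The size of the 8c minus 2c difference varied between experiments. The median over the 9 genes was -5.54, -2.33, -1.60, -2.18 and -3.69 in experiments 1 to 5. The largest was in experiment 1, whose 2c array was the brightest of all 15 for 9 of the 10 genes, all but Vwf. The smallest was in experiment 3, where 8c lay on the other slide than 2c. Within slide 1 the median was -3.41 and within slide 2 it was -3.10, and no feature of the 17416 passed within a slide. Age was tested as an interaction with fraction, in log2 per week of the 8c minus 2c difference. None of the 9 genes passed, nor did any of the 17416 features, 0% of them, while 834 features had an unadjusted p under 0.05. The slope was -0.40 per week for Kdr (SE 0.15, adjusted p = 0.962 with limma, and 0.0273 unadjusted). Experiments 1 and 2, of 12 and 14 weeks, lay on slide 1, and experiments 4 and 5, of 5 and 6 weeks, on slide 2. Both older experiments also had arrays with acinar transcripts. Age can therefore not be fully told apart from slide and acinar transcripts.

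Over the 15 arrays, with the mean of each experiment removed, the 7 genes other than Oit3, Vwf and Eng varied together. Their 21 pairs had a Pearson r of 0.66 to 0.99 with a median of 0.91, as a description of arrays that share their scaling and their 2c to 8c contrast. Pairs of Eng with these genes had 0.52 to 0.78, and pairs with Vwf had -0.41 to 0.19.

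Among tested features with a symbol, the nearest to Kdr were Lrg1 (r = 0.99) and Ecm1 (0.99), followed by Fcgr2b (0.98). The nearest to Fcgr2b were Bgn, Col3a1 and Ecm1 (each 0.99). The nearest to Vipr1 were Fcgr2b, Ecm1 and Lrg1 (each 0.99), and to Ramp1 they were Bgn, Ecm1 and Tmem204 (each 0.99). Bgn, Col3a1 and Ecm1 encode matrix proteins, and all 3 stand on the list of stellate cell markers used here. For Lyve1 they were Rfc2 (0.98), Lrat (0.97) and Csf1 (0.97), and for Pecam1 they were Cep19 (0.97), Hlx (0.96) and Cd74 (0.95). For Stab2 they were Cebpd (0.95), Sh3bgrl3 (0.92) and S1pr3 (0.91). For Eng they were Ctsa (0.95), Ptcd1 (0.92) and Actn1 (0.92), and for Vwf they were Bpifa6 (0.95), Ifna1l1 (0.94) and Kbtbd11 (0.94). No other member was among the nearest 3 for these 5 genes.

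Markers of stellate and Kupffer cells moved with the endothelial genes. The summed linear level of the 7 genes was 0.300 to 2.85 in 2c, 0.0400 to 0.212 in 4c and 0.0270 to 0.262 in 8c fractions. The summed level of 18 stellate cell markers was 1.36 to 11.9 in 2c, 0.385 to 0.953 in 4c and 0.351 to 1.03 in 8c fractions, and that of 18 Kupffer cell markers was 2.03 to 18.3 in 2c, 1.32 to 1.71 in 4c and 1.16 to 1.77 in 8c fractions. In 8c against 2c, 8 of 11 tested stellate markers and 11 of 13 tested Kupffer markers were lower, beside 1.54% of all features. In 4c against 2c, 8 of 11 and 5 of 13 were lower, beside 0.907%. Some of them, such as Lrat and Cd163, were well above background on 5 arrays only and could enter through 2c alone. Of the tested lymphocyte markers 0 of 4 were lower in 8c against 2c, and of the cholangiocyte markers 1 of 3. Across the 15 arrays the log2 sum of the 7 genes had a Pearson r of 0.98 with the stellate sum, 0.90 with the Kupffer sum, 0.45 with the sum of 44 other endothelial genes, 0.31 with the lymphocyte sum, 0.18 with the hepatocyte sum and 0.15 with the cholangiocyte sum. With the mean of each experiment removed, these were 0.98 for stellate, 0.94 for Kupffer, 0.88 for other endothelial, 0.48 for hepatocyte, 0.36 for lymphocyte and 0.18 for cholangiocyte markers. A summed linear level follows its brightest genes most. In the other endothelial list the brightest tested gene was Ctsl, with a mean log2 level of 3.64 and an 8c minus 2c difference of -0.17. In the Kupffer list it was Cd14, with a level of -0.006 and a difference of 0.14. The Kupffer list also holds genes with large 8c minus 2c differences, such as Clec4f (-5.16) and C1qb (-4.08). How much each gene adds to the r values was not separated, so they do not rank the lists. Col1a1, Dcn and Lum of the stellate list and Marco of the Kupffer list were well above background on 0 arrays. The part of these cells in the endothelial result was not tested.

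**Figure D4:**
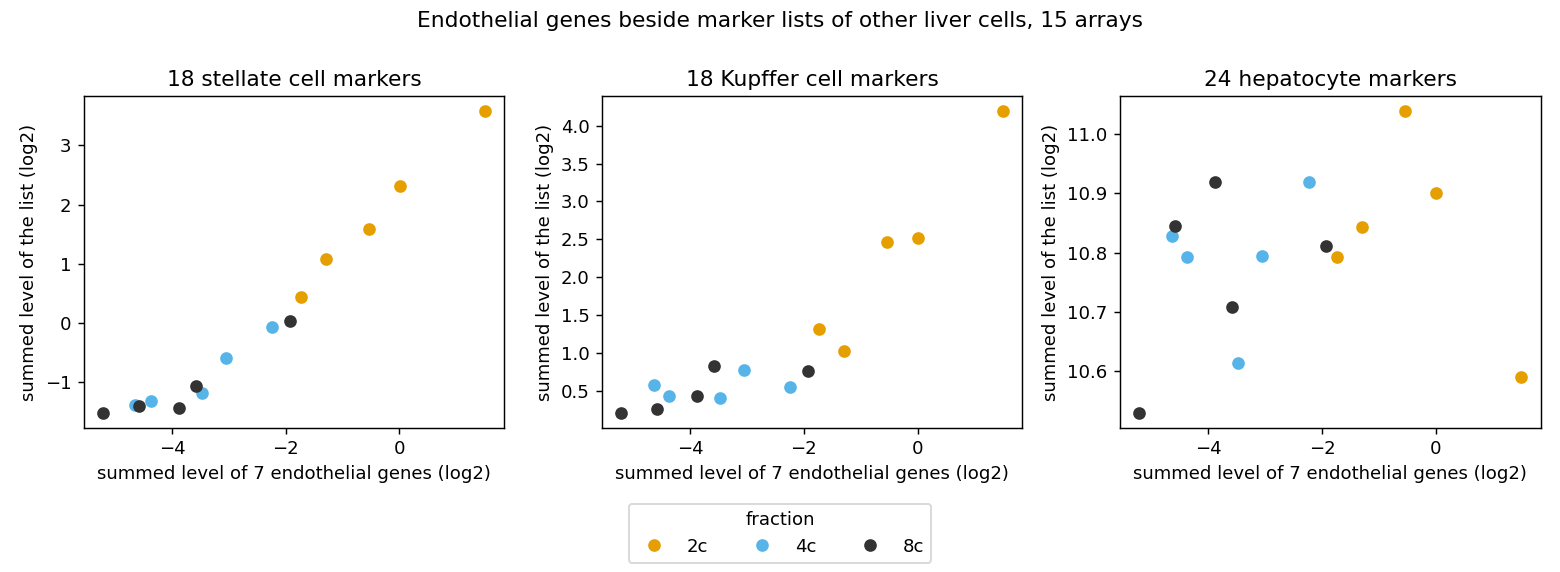
Summed level (log2 of summed linear levels) of stellate cell, Kupffer cell and hepatocyte markers against the summed level of 7 endothelial genes on the 15 arrays, coloured by fraction. The 5 2c arrays lie highest on the stellate and Kupffer axes, and the hepatocyte sums of the fractions overlap.

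A wider list of endothelial genes was set beside the members. Of 44 other endothelial genes on the array, 18 were tested, of which 4 passed as lower in 8c against 2c, Dnase1l3 (-3.41 on the log2 scale, SE 0.62), Bmp2 (-2.81, SE 0.36), Tek (-2.40, SE 0.38) and Cd36 (-0.56, SE 0.10), beside 1.54% of all features. Dnase1l3 is a secreted DNase, Bmp2 a ligand that the liver endothelium sends to hepatocytes, Tek the angiopoietin receptor, and Cd36 a fatty acid receptor that hepatocytes also express. In 4c against 2c, 3 of the 18 were lower, Dnase1l3 (-3.21), Bmp2 (-2.61) and Tek (-1.99), beside 0.907% of all features, and in 8c against 4c none of the 18 passed. The median over the 18 was -0.20 for 8c against 2c, -0.13 for 4c against 2c and -0.07 for 8c against 4c. In 8c against 2c, Cdh5 (-0.22), Flt4 (0.04), Robo4 (-0.04), Sox18 (-0.32) and Egfl7 (-0.39) did not pass. These were well above background on all 15 arrays. Plvap, well above background on 5 arrays, had the largest difference that did not pass (-3.13, SE 0.78). Of the list, 8 genes were well above background on 0 arrays, among them Flt1 and Tie1. Dnase1l3 was well above background on 10 of 15 arrays, and Bmp2 and Tek on 6 each. Bmp2 and Tek could thus pass the filter through their 2c arrays alone.

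The partners of the receptors that could be tested mostly had no difference past the threshold, and several close partners were too dim to test. Of 14 tested genes of the VEGF and TGF-β pathways, 1 was lower in 8c than in 2c, beside 1.54% of all features. It was Nrp2, a VEGF co-receptor (-1.11, SE 0.23). None of the 14 passed in 4c against 2c or 8c against 4c. Acvrl1, Nrp1 and Flt1 of these pathways were well above background on 2, 3 and 0 arrays and were not tested. Of 5 tested genes of a list of ligands, receptors and signalling genes set beside Ramp1 and Vipr1, none passed in any comparison. The brightest were Gnas, the G protein subunit that these receptors act through (8c minus 2c 0.08, SE 0.06), and Gcgr, the glucagon receptor of hepatocytes (0.17, SE 0.07). Calcrl, the calcitonin receptor-like receptor that Ramp1 joins, was well above background on 2 arrays and Vip on 0. Neither was tested. Of 2 tested partners of Vwf, F8, the coagulation factor that it carries, differed by -0.11 (SE 0.10) and the platelet glycoprotein Gp9 by -0.28 (SE 0.29) in 8c against 2c, and neither passed.

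Of 9 tested genes of a list of other scavenger and endocytic receptors, 3 were lower in 8c than in 2c, beside 1.54% of all features. They were the Fc receptor Fcgr1a (-3.69, SE 0.77), the haemoglobin scavenger receptor Cd163 (-3.63, SE 0.72) and Cd36. Fcgr1a and Cd163 are known from macrophages, and each was well above background on 5 of 15 arrays. That is the least the filter accepts, so both could enter through their 2c arrays alone. Their differences rest largely on values not well above background, and the count of 3 is a description. In 4c against 2c, Cd163 alone of the 9 passed (-3.64, SE 0.72), and in 8c against 4c none did.

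Promoters of 7 of the 10 genes were matched in RefSeq (GRCr8), and Vwf, Pecam1 and Fcgr2b were not matched. The core letters of the binding motif of ETS factors, GGAAG, read on both strands, are in the 250 bases before the start of 6 of the 7 genes, all but Vipr1, and in 63.3% of 33469 promoters of that length. The letters AGATAA of a GATA factor motif are in none of the 7 and in 10.3% of all. Kdr (chr14:32571813-32572062, plus strand) and Ramp1 (chr9:99212866-99213115, plus strand) are shown as the 2 matched genes with the largest 8c minus 2c differences, with the ETS letters in capitals. A match is a description of the letters only.
Kdr: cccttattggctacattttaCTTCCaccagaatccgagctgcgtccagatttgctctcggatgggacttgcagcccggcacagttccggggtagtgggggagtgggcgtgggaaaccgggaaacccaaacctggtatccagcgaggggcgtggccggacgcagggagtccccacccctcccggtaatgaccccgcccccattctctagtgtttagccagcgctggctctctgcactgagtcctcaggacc
Ramp1: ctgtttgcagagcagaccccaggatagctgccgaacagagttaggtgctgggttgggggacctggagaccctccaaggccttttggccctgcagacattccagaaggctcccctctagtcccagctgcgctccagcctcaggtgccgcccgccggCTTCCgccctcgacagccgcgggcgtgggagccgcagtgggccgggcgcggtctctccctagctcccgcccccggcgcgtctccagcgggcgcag

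Fewer genes passed with some arrays left out. Without the 6 arrays with acinar transcripts, 0 of 9 genes passed in 8c against 2c and 0 in 4c against 2c, and no feature of the 17416 passed, while the median 8c minus 2c difference was -3.06. Without experiment 5, 0 of 9 passed in either comparison. The 8c minus 2c difference was then -4.39 for Ramp1, -4.17 for Vipr1, -4.01 for Kdr, -3.01 for Fcgr2b and -2.72 for Lyve1. The share over all features is not given for that setting, so its count says nothing particular to these genes. With any 1 experiment left out, the median 8c minus 2c difference was between -3.29 and -2.51.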

How the data were processed

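RNA of 15 sorted fractions was labelled with Cy3 and hybridised to 1 Agilent array each. Per the file headers, spots were read with Feature Extraction 11.5.1.1, while the submitters' processing notes name version 10.7.3.1. The deposited intensity is the processed signal of each spot, background-subtracted by that software on a linear scale, with no normalization between arrays. The series' deposited value table holds the same intensities and was used as an alternative. From these, control spots and outlier spots (264 to 539 per array) were left out, spots of a probe were averaged, and log2 levels were set relative to the 75th percentile over 16211 probes well above background on all arrays. Probes well above background on at least 5 arrays were kept, and the brightest stood for a gene. Models were fitted with limma 3.58.1 in R 4.3.3 with fraction as group and experiment as block. Arrays of an experiment share an isolation and the animals' age in the labels, and their deviations correlated with a median of 0.58 (0.04 to 0.79, 15 pairs). Two-sided p-values were adjusted by the Benjamini-Hochberg method across 17416 features. The model was tested on simulated data. The 5 arrays per group limit the precision, and the experiments were called independent by the submitters. The genes and lists, and the rule naming the list genes that passed and the 3 nearest features per gene, were chosen with earlier results of these data known. The alternatives tried are in the closing section.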

Additional observations from a re-analysis of the deposited data

Results flagged for a closer look

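The Eng level of -3.32 (log2 relative to the 75th percentile of the array) in the 2c fraction of experiment 1 stood apart from the other 4 2c arrays, which had -4.60 to -4.38. It was 1 of 27 groups of 5 arrays examined, and chance marks about 1 in 20 such groups. The same array was the brightest of all 15 for 9 of the 10 genes.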

How the results depend on the processing

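With experiment as block, 5 genes passed in 8c against 2c and 4 in 4c against 2c. With no replicate block these counts were 2 and 0, and with slide as the block 3 and 0. They were 0 and 0 within slide 1, within slide 2 and without the arrays with acinar transcripts, settings with fewer arrays. With normexp background correction they were 2 and 0. With a filter on all arrays they were 0 and 0, since 2 members were left, and with no filter on dim probes they were 5 and 0, over more features. The 8c minus 2c median was -0.72 with normexp and -0.33 with the filter on all arrays. Leaving out each experiment gave 0 to 6 and 0 to 4 passing genes, medians of -3.29 to -2.51 for 8c minus 2c and of -0.51 to -0.07 for 8c minus 4c. Leaving out each array gave 5 to 6 and 0 to 5 genes and medians of -3.34 to -2.64 and of -0.50 to 0.11. The share over all features is not given beside these counts. In 8c against 4c and for age 0 genes passed under every alternative run. The adjusted p of 8c against 4c with limma was 0.181 to 0.9999, a range that does not cover the settings leaving out a single array. Age could not be fitted within slide 2. Over all features, 409 passed in 8c against 2c, 38 with no replicate block, 91 with slide as the block and 178 with normexp.

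Small differences changed sign. For Vwf in 8c against 2c they were 0.040 (slide as the block), 0.22 (within slide 1), 0.025 (median scaling) and 0.063 (75th percentile of all probes), and -0.093 to 0.042 with each experiment left out, above 0 without experiment 3, 4 or 5. Vwf was -0.041 in 4c against 2c within slide 2. In 8c against 4c it was 0.072 within slide 1 and -0.16 to 0.0056 with each experiment left out, above 0 without experiment 3. Pecam1 in 8c against 4c was -0.0028 (slide as the block), -1.25 (within slide 1), -0.0077 (quantile normalization) and -0.012 (normexp), and -0.23 to 0.41 with each experiment left out, below 0 without experiment 3, 4 or 5. Stab2 in 8c against 4c was -0.73 within slide 2, -0.87 without the acinar arrays, and -0.75 (without experiment 2) to 0.57 with each experiment left out. In the same comparison Vipr1 was -0.60 to 0.095 (without experiment 1) and Lyve1 was -0.0096 (without experiment 3) to 0.63. The cause of these changes was not tested. Other scalings, the mean of a gene's probes and the deposited value table gave 5 and 4 genes. In 8c against 2c, Stab2 passed without experiment 2 (-3.38) and Eng without experiment 3 (-0.85). Of the tested genes, Vwf and Eng alone were well above background on all 4c and 8c arrays.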
